A study of Mus musculus with 28 samples.

Results

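Peroxisomal genes, namely the peroxins that build the organelle and the transporters and enzymes that work in it, were described across macrophages that lacked Irgm1, lacked both Irgm1 and IFNAR (the receptor for type I interferon), or were exposed to fenofibrate. The set was listed by gene symbol and holds 51 genes. These are 13 peroxins, 7 membrane and transport proteins, 10 enzymes of beta-oxidation and 7 listed under acyl-CoA handling (with the nucleotide hydrolase Nudt12 among them). The rest are 2 enzymes of alpha-oxidation, 4 of ether lipid synthesis, 6 redox enzymes and 2 proteases. All 51 were matched to an Ensembl gene ID. Of these, 46 were present in the first experiment and all 46 passed the low-count filter, among 13998 genes tested. In the second experiment 51 were present and 48 passed, among 15429 genes tested. Acaa1b, Pipox and Ephx2 did not pass there, and these 3 together with Acot4 and Far2 were not analysed in the first experiment.

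The data are 28 messenger RNA libraries of bone marrow-derived macrophages, which are primary cells grown from mouse marrow, with 4 libraries in each of 7 groups. In the first experiment WT (wild-type, C57BL/6), Irgm1-KO (Irgm1-/-) and Irgm_IFNAR-KO (IFNAR/Irgm1-/-) cells were compared without added treatment. The second experiment compared WT and Irgm1KO cells, each as a control group (WT_control, Irgm1KO_control) and with 50 µM fenofibrate (WT_fenofibrate, Irgm1KO_fenofibrate). Per the labels, the mutants were backcrossed to C57BL/6, marrow came from mice of both sexes aged 2 to 4 months, cultures were grown for 6 days with 20% L929-conditioned medium, a source of the growth factor for macrophages, and all cells then spent 24 h in medium that lacked it. No group lacks IFNAR alone, so the effect of the receptor can be read only in cells that also lack Irgm1. No driver restricting the deletions to a cell type is named in the labels. How long the drug was applied and what the control cells received are not given in these labels, which also do not state that the libraries of a group came from separate animals. P-values therefore measure the spread between these libraries, which may be partly technical.

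Peroxisomes are organelles bounded by a single membrane. They shorten very-long-chain fatty acids by beta-oxidation, take the first carbon off branched chains by alpha-oxidation, begin the synthesis of ether lipids such as plasmalogens, and break down the hydrogen peroxide that their oxidases make. Peroxins insert the membrane proteins (PEX3, PEX16, PEX19), carry enzymes in from the cytosol (the receptors PEX5 and PEX7), dock those receptors (PEX13, PEX14), recycle them (PEX2, PEX10, PEX6, PEX26) and control the number of organelles (the PEX11 proteins). Fenofibrate activates the nuclear receptor PPAR alpha, and the rodent liver responds to such drugs with more peroxisomes and with induction of their beta-oxidation enzymes. Interferons induce Irgm1, a GTPase of the immunity-related family, and macrophages without it are known for raised type I interferon signalling.

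The smallest and largest library held 48652844 and 70455339 counts in the first experiment, and 82362311 and 120844616 in the second. Levels are given as CPM, the count of a gene scaled to the TMM-adjusted size of its library. Irgm1 counts, which do not show which exons they come from, ranged from 1189 to 1352 CPM in WT, 628 to 839 in Irgm1-KO and 641 to 786 in Irgm_IFNAR-KO, and from 1469.7 to 1673 in the 8 WT libraries against 991 to 1144 in the 8 Irgm1KO libraries of the second experiment. The knockout libraries thus lay below every WT library of their experiment. All 10 macrophage markers checked were present in every group, but their summed level was lower without Irgm1 (1 of the 10 rose and 4 fell in Irgm1-KO, and 1 rose and 7 fell in Irgm1KO_control), at 12357 to 17509 CPM in Irgm1-KO against 24051 to 44321 in WT and 31609 to 42848 in Irgm_IFNAR-KO, and at 13336 to 15625 in Irgm1KO_control against 25233 to 34354 in WT_control. Neutrophil markers (8 of 10 present in the first table) summed to 16.3 to 40.9 CPM in WT, 5.69 to 9.76 in Irgm1-KO and 16.1 to 26.1 in Irgm_IFNAR-KO, with 1 of them at 0 in Irgm1-KO. Stromal markers (4 of 8) summed to 3.02 to 7.92 CPM, 1.02 to 1.60 and 6.76 to 8.11 in the same order. In the second experiment the neutrophil sum was 2.31 to 6.24 CPM in WT_control and 0.345 to 0.622 in Irgm1KO_control, and the stromal sum was 1.26 to 3.22 and 0.0994 to 0.174, with 4 of 8 stromal markers at 0 in Irgm1KO_control. Osteoclast markers were higher without Irgm1, at 20.2 to 21.3 CPM against 11.6 to 16.8 in WT and 7.37 to 9.30 in Irgm_IFNAR-KO, and at 32.9 to 51.1 against 10.6 to 13.9 in the controls of the second experiment. Dendritic cell markers summed to 21.6 to 26.1 CPM in Irgm1-KO against 46.1 to 54.4 in WT, and to 54.8 to 59.0 in Irgm1KO_control against 27.3 to 45.7 in WT_control. Treated cells had macrophage sums of 16625 to 25665 CPM in WT and 17589 to 21316 in Irgm1KO. With fenofibrate the dendritic sum was 8.56 to 24.8 CPM in WT and 55.8 to 71.8 in Irgm1KO, the osteoclast sum 13.2 to 18.1 and 51.6 to 104, the neutrophil sum 2.18 to 2.97 and 0.874 to 2.49, and the stromal sum 0.517 to 1.71 and 0.112 to 0.240. The part of these other cells in the differences described here was not tested. In bulk RNA, fewer cells of a type and less RNA per cell cannot be told apart. In each group of the first experiment 1 library stood apart (WT 2, Irgm1-KO 3 and Irgm_IFNAR-KO 4), and the calls that change without these 3 are named below.

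In Irgm1-KO macrophages, 13 of the 46 tested members fell and 6 rose relative to WT (28.3% fell; edgeR quasi-likelihood test, Benjamini-Hochberg adjusted over all genes tested, threshold 0.05). A member is said to be called where it passed this threshold in the fit of all libraries with TMM scaling and no covariate. Other fits are named for many of the calls that they change, but not for all. Over all genes tested in this comparison, 20.7% were called lower and 19.8% higher. The falls lay among the enzymes and membrane proteins, 13 of 33. Of the 13 peroxins, 0 were called lower in the main edgeR fit, 0 had an unadjusted p under 0.05 there with a negative sign, and 0 were called lower by DESeq2. Other edgeR fits called Pex2 lower, with the Xist covariate described below (adjusted p 0.0200) or without WT replicate 1 (adjusted p 0.0485). In the second experiment 1 of the 13, Pex5, was called lower. The peroxisomal half-transporter Abcd2 was lowest, at 3.94 to 4.37 CPM against 14.1 to 16.3 CPM in WT, and the membrane peroxin Pex16 was raised most, at 19.5 to 24.4 CPM against 7.37 to 10.1 CPM. The median log2 fold change of the members was -0.12, beside -0.02 over all genes tested. By role, 4 of 7 membrane proteins, 3 of 9 beta-oxidation enzymes, 2 of 6 acyl-CoA enzymes, 2 of 3 ether lipid enzymes and 2 of 4 redox enzymes fell. Peroxins supplied 3 of the 6 rises, and the membrane proteins, alpha-oxidation and redox enzymes 1 each. Without the 3 outlying libraries, an alternative chosen after seeing the data, 17 members fell and 9 rose. The calls added were Abcd4, Acaa1a, Acox3, Crot, Mpv17, Nudt7 and Pex26 (adjusted p 0.00513 to 0.0421), and none of the 19 was lost.

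The second experiment, which shares no library with the first, gave 20 falls and 12 rises among 48 members in Irgm1KO_control against WT_control. The shares were 41.7% and 25.0%, where 26.1% of all genes tested were called lower and 27.3% higher. The members' median log2 fold change was 0.00, as was that of all genes tested. All 19 members called in the first experiment were called the same way in the second. Those 19 were 59.4% of the 32 called there. Over all genes tested in both experiments, 75.6% of the 2842 that fell in the first fell again in the second and 78.9% of the 2721 that rose did so. Of the 46 members tested in both experiments, 37 had the same sign. The scatter of the fold changes in both experiments shows this member by member. Where the experiments differed, the second called members the first did not, among them catalase, Pex5 and Acox3, which each had an adjusted p above 0.05 in the first.

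**Figure D1:**
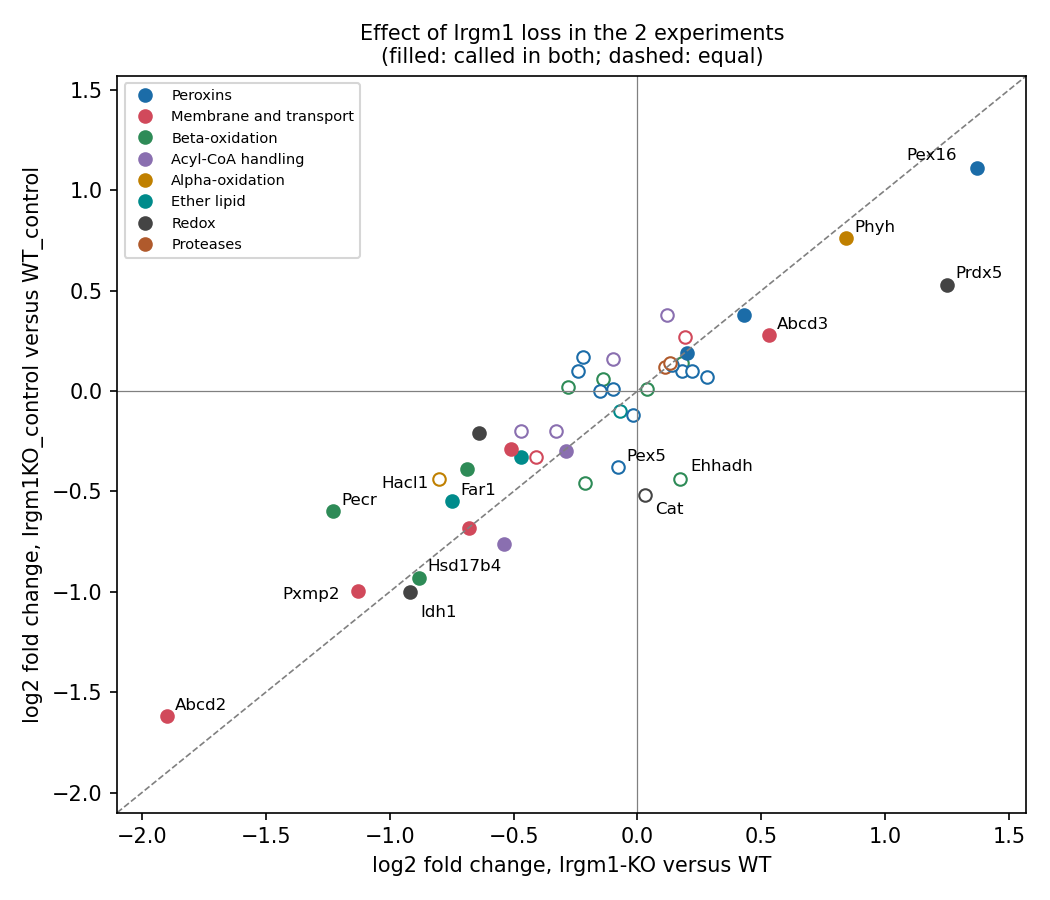
Log2 fold change of each member in Irgm1-KO against WT (x axis) and in Irgm1KO_control against WT_control (y axis), coloured by role; filled points passed the threshold in both experiments and open points in 1 or neither. The 19 filled points all lie in the lower left or upper right quadrant, from Abcd2 (-1.90 and -1.62) to Pex16 (1.37 and 1.11).

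When the interferon receptor was missing as well, most of these differences from WT were no longer called. Against Irgm1-KO, 15 of 46 members rose and 6 fell in Irgm_IFNAR-KO, beside 21.5% and 21.3% of all genes tested. Membrane proteins (4 rose, 1 fell), ether lipid enzymes (3 of 3 rose), redox enzymes (3 of 4 rose) and beta-oxidation enzymes (3 rose, 1 fell) carried the rises. Against WT, 1 member rose and 1 fell in Irgm_IFNAR-KO, which is 2.2% each, beside 3.94% and 8.22% of all genes tested. The members' median log2 fold change against WT was 0.00 with a median size of 0.10, beside 0.01 and 0.15 over all genes tested. Xist, the RNA of the inactive X chromosome, ranged from 50.8 to 231 CPM over the libraries of the first experiment. Within each group it was lowest in the library that stood apart, at 50.8 CPM in WT 2, 97.9 in Irgm1-KO 3 and 97.2 in Irgm_IFNAR-KO 4. The Xist covariate and the fit without these 3 libraries are therefore not independent checks. With the Xist level as a covariate 11 members rose and 2 fell against WT, among 30.1% of all genes called in either direction, so the small count against WT depends on this choice. With that covariate 23 members rose against Irgm1-KO, beside 4631 of all 13998 genes tested. In Irgm1-KO against WT 13 rose, beside 4240 of the 13998. In both of these comparisons 31 members were called in either direction, among 63.6% and 60.1% of all genes. Calls against WT were also few and unstable in other fits, with 2 rises by DESeq2 and 0 with RLE scaling. Without the 3 outlying libraries Mpv17, Nudt7, Pex2 and Prdx5 were called as well against Irgm1-KO (adjusted p 0.00130 to 0.0382) and Cat was lost (adjusted p = 0.0621), and against WT Prdx5 was added (adjusted p = 0.00738). These comparisons share the Irgm1-KO or the WT libraries with each other, so their values are given side by side for each gene, and a p above the threshold does not show equal levels.

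Fenofibrate raised 4 of 13 peroxins in each genotype and lowered 2 of them, Pex16 and Pex13, in Irgm1KO cells. Of 7 membrane genes it raised 5 and lowered 1 in Irgm1KO cells, and lowered 2 in WT cells. In WT_fenofibrate against WT_control 10 of 48 members rose and 10 fell (20.8% each), where 18.1% and 16.9% of all genes tested did. In Irgm1KO_fenofibrate against Irgm1KO_control 21 rose and 8 fell (43.8% and 16.7%), where 23.5% and 22.2% of all genes tested did. The interaction, which is the fenofibrate log2 fold change in Irgm1KO minus that in WT, was called positive for 13 members and negative for 5 (27.1% and 10.4%), beside 14.9% and 14.7% of all genes tested. Median log2 fold changes of the members were 0.06 in WT and 0.12 in Irgm1KO, beside 0.02 and 0.01 over all genes. The 2 fenofibrate comparisons share no library, and 10 members were called the same way in both, 7 of them upward, among which were Pex11a, Cat, Ech1, Amacr and Nudt12. Another 4 were called in opposite ways, with Hsd17b4, Pxmp2 and Pxmp4 lower in WT and higher in Irgm1KO, and Phyh the reverse. The fall of Pxmp4 in WT was lost without WT_control replicates 1 or 3 or WT_fenofibrate replicates 2 or 4 (adjusted p 0.0585 to 0.109) and with no low-count filter (adjusted p 0.0665). These calls leave out the pairing of control and treated libraries by replicate number. With the replicate number as a block within each genotype, 25 members were called in WT, 30 in Irgm1KO and 21 in the interaction, against 20, 29 and 18 without it. With the block 43.7%, 52.98% and 38.3% of all genes were called in either direction. Hacl1 in Irgm1KO was the only call that the block removed. Xist in this experiment was 0 to 1.78 CPM in replicates 2 and 4 of both WT groups and replicate 3 of both Irgm1KO groups. The other libraries had 50.2 to 143 CPM, so libraries of a group, and the 2 genotypes, were not alike in Xist. With Xist as a covariate 21 members were called in WT, 29 in Irgm1KO and 18 in the interaction, among 35.6%, 46.6% and 30.7% of all genes.

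Members called in the first experiment can be followed into the fenofibrate comparisons without shared libraries. Of the 13 that fell in Irgm1-KO, 10 rose with fenofibrate in Irgm1KO cells and the other 3 (Scp2, Far1 and Dhrs4) were not called. Of all 2842 genes that fell in Irgm1-KO and were tested in both experiments, 1620 rose with fenofibrate in Irgm1KO cells, so the direction was common among such genes. In WT cells 1 of the 13 rose with fenofibrate (Nudt12) and 6 fell, beside 11.5% and 27.4% of the 2842. The interaction was called positive for 11 of the 13, beside 53.8% of the 2842. Of the 6 members that rose in Irgm1-KO, 5 fell with fenofibrate in Irgm1KO cells and Pex14 was not called, and 59.9% of all 2721 such genes fell.

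**Figure D2:**
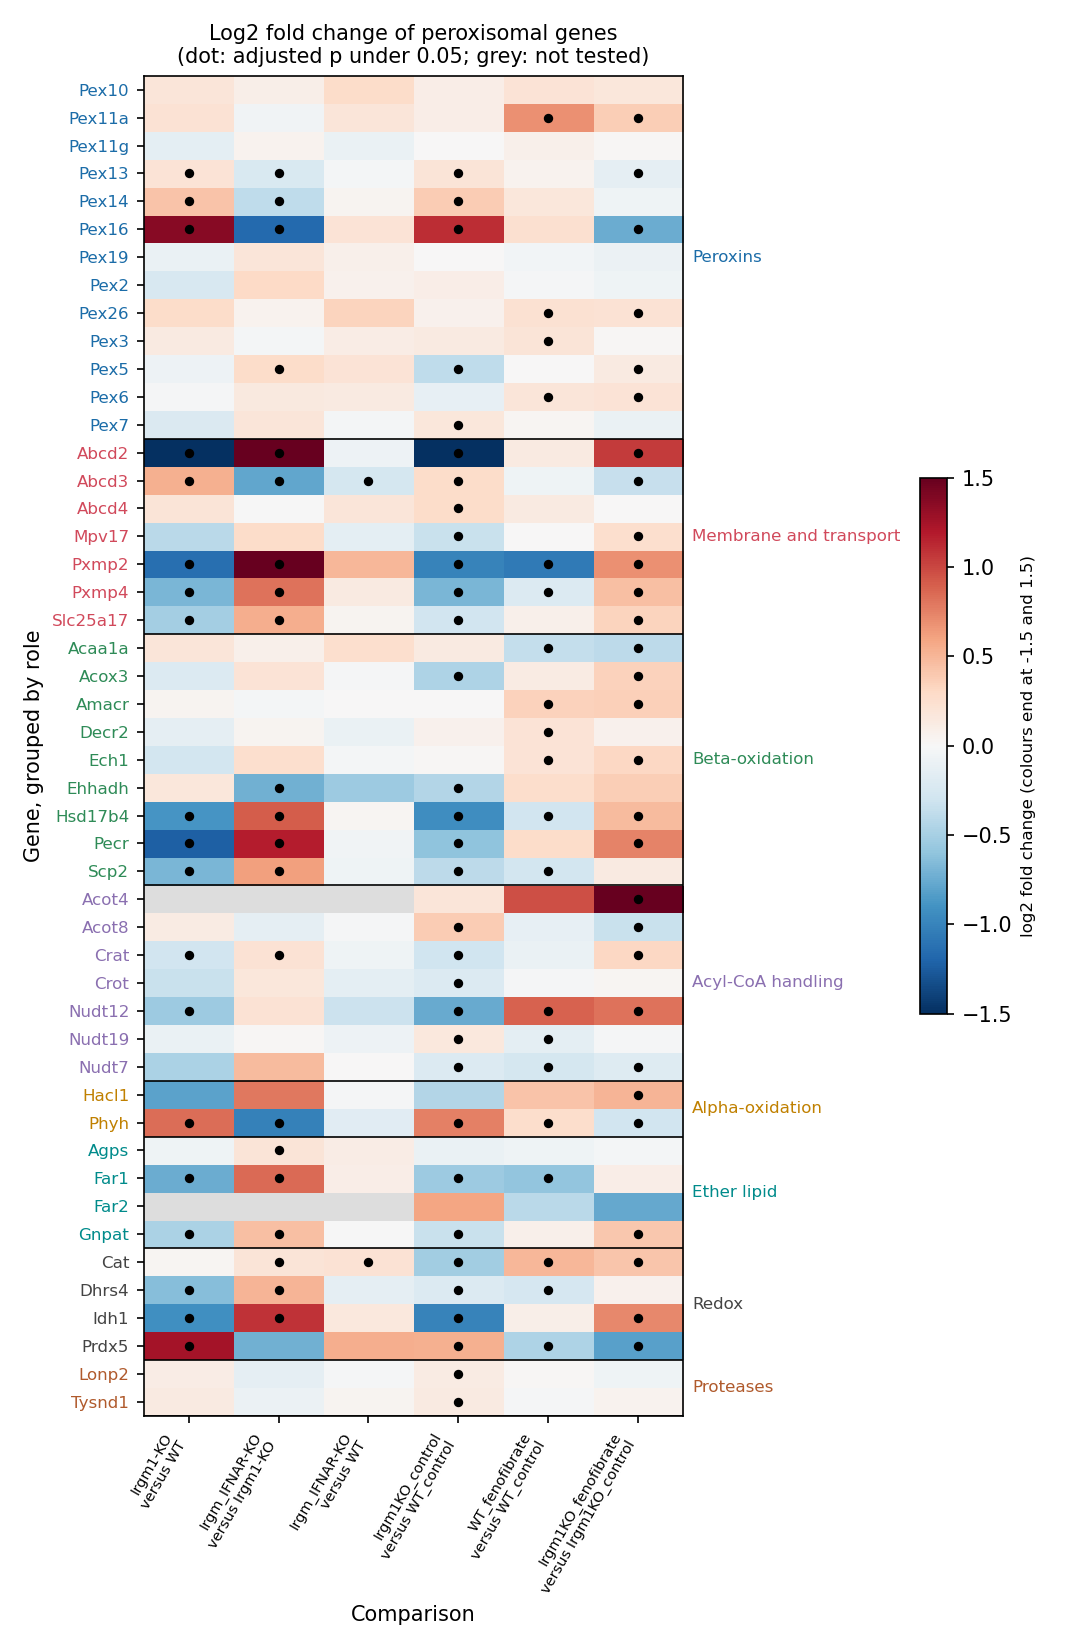
Log2 fold change (colour, red higher and blue lower in the first-named group) of each tested member (rows, grouped by role) in 6 comparisons (columns); black dots mark an adjusted p under 0.05 and grey marks members not tested in the first experiment. The third column, Irgm_IFNAR-KO against WT, holds 2 dots, against 19 in the first and 32 in the fourth.

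Promoter sequences were searched for motifs in the members for which a window was available, which leaves out several that changed most. RefSeq promoter windows (build GRCm38.p6, 250 bases before to 50 after the start) were found for 41 of the 51 genes, 49 windows in all, while the counts were made on build GRCm39. No window was found for Abcd2, Abcd4, Amacr, Crat, Ephx2, Hsd17b4, Nudt12, Pex2, Pex19 and Pxmp2, so these were not searched. Each motif was searched on both strands. The nuclear receptor half-site AGGTCA occurred in 5 of 49 windows (10.2%; Acot4, Cat, Pex11g, Phyh and Scp2), against 16.26% of all 32851 windows in the table. The direct repeat AGGTCANAGGTCA, the form that PPAR and RXR bind together and which contains the half-site, occurred in none of the 49 and in 0.04% of all windows. GAAANNGAAA, an interferon-stimulated response element, occurred in 1 (Pex26; 2.0% against 3.44%), and CACGTG in 4 (8.2% against 7.15%; Acot4, Gnpat, Lonp2 and Mpv17). The GC box GGGCGG occurred in 35 windows (71.4% against 35.66%) and CCAAT in 20 (40.8% against 37.41%). A match is a description of letters and not a binding site, and a missing match says only that these letters are not in the window.

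The 250 bases before the start are printed 5′ to 3′ on the gene's strand, with capitals marking the half-site or the GAAANNGAAA match on either strand. Pex16 (chr2:92374426-92374675, plus strand, the first of 2 starts listed) is shown as the peroxin with the largest rise without Irgm1, Pex26 (chr6:121183417-121183666, plus strand) for its GAAANNGAAA match, Cat (chr2:103485154-103485403, minus strand) and Acot4 (chr12:84038129-84038378, plus strand) for a half-site in genes that rose with fenofibrate, and Pex11a (chr7:79743132-79743381, minus strand) as a gene that rose with fenofibrate and has neither motif.
Pex16: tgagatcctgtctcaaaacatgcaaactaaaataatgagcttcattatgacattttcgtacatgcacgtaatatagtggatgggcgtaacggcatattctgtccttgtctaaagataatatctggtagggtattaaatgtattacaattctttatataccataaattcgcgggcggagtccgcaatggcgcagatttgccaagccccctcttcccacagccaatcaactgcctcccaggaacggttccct
Pex26: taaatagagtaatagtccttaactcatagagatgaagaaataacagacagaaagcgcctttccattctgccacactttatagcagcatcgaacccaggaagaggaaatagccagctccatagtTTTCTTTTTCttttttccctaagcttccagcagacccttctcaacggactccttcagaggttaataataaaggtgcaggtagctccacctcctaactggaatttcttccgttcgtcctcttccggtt
Cat: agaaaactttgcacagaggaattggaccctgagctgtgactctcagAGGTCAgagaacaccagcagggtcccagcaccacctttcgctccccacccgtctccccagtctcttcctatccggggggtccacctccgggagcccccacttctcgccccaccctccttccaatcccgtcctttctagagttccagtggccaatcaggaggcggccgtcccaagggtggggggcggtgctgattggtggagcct
Acot4: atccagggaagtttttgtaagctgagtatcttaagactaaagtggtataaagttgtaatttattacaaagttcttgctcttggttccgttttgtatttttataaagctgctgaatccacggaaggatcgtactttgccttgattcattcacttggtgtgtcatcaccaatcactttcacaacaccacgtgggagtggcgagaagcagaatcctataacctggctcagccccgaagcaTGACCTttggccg
Pex11a: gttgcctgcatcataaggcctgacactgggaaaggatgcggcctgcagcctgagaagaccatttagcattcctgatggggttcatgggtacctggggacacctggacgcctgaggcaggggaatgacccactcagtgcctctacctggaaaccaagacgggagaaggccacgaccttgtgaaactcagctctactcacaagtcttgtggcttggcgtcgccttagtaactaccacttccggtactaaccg
In these 5 sequences Cat and Acot4 hold the capitalised half-site, Pex26 holds the capitalised response element, and Pex16 and Pex11a hold neither. Acot4, at few counts, was called with fenofibrate in Irgm1KO cells alone. The half-site genes not printed did not share this rise. Scp2 fell with the drug in WT, Phyh rose in WT and fell in Irgm1KO, and Pex11g was not called. A link of the half-site to the drug was not tested.

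Pex16 and the docking peroxins Pex14 and Pex13 rose without Irgm1 in both experiments. The import receptors Pex5 and Pex7 were called for Irgm1 loss in the second experiment, with opposite signs. Pex16, which inserts membrane proteins in the early steps of biogenesis, was at 7.37, 10.1, 7.90 and 7.86 CPM in WT, 21.5, 20.4, 24.4 and 19.5 in Irgm1-KO, and 8.45, 9.63, 8.45 and 11.6 in Irgm_IFNAR-KO. Every Irgm1-KO library exceeded every library of the other groups (log2 fold change 1.37, SE 0.131, adjusted p = 5.84e-06 against WT), and Irgm_IFNAR-KO overlapped WT (log2 fold change 0.20, adjusted p = 0.447, called with the Xist covariate (adjusted p 0.0218)) and lay below Irgm1-KO (log2 fold change -1.17, adjusted p = 1.63e-05). Pex16 in the second experiment was at 7.74, 7.04, 7.30 and 7.30 CPM in WT_control, 9.27, 7.35, 9.14 and 9.02 in WT_fenofibrate, 16.05, 15.01, 13.5 and 18.8 in Irgm1KO_control, and 9.18, 10.7, 8.85 and 8.96 in Irgm1KO_fenofibrate. Untreated Irgm1KO cells again stood above all others (log2 fold change 1.11, SE 0.0977, adjusted p = 1.07e-07). Fenofibrate lowered Pex16 in them (log2 fold change -0.75, SE 0.0969, adjusted p = 1.01e-05) to a range that overlapped treated WT cells. In WT the drug's fold change was positive (log2 fold change 0.24, adjusted p = 0.0633) and was called with the Xist covariate, only the compared groups or the replicate block or without WT_fenofibrate replicate 2 (adjusted p 0.0185 to 0.0394). The interaction was negative (interaction -0.99, SE 0.137, adjusted p = 6.73e-05). Pex16 overlaps Large2 on the other strand, and the use of strand in counting is not given in the sources used here.

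Pex14, a subunit of the docking complex for import receptors, was at 16.8, 17.1, 16.7 and 17.3 CPM in WT, 22.3, 22.98, 23.5 and 22.3 in Irgm1-KO, and 16.5, 16.4, 17.2 and 19.7 in Irgm_IFNAR-KO. Irgm1-KO lay above WT and Irgm_IFNAR-KO with no overlap (log2 fold change 0.43, SE 0.0704, adjusted p = 4.13e-04 against WT, and log2 fold change -0.38, adjusted p = 7.97e-04 for Irgm_IFNAR-KO against Irgm1-KO). Pex14 in the second experiment was at 19.7, 19.3, 19.97 and 19.3 CPM in WT_control, 22.6, 20.6, 22.3 and 22.7 in WT_fenofibrate, 24.6, 25.9, 23.8 and 27.3 in Irgm1KO_control, and 22.2, 28.1, 23.6 and 22.9 in Irgm1KO_fenofibrate. The rise without Irgm1 recurred (log2 fold change 0.38, SE 0.0662, adjusted p = 1.40e-04). Pex14 was not called with fenofibrate in Irgm1KO cells (log2 fold change -0.07, adjusted p = 0.406) except without Irgm1KO_fenofibrate replicate 2 (adjusted p 0.0141). In WT it was not called either (log2 fold change 0.17, adjusted p = 0.0543) except with the Xist covariate, only the compared groups or the replicate block or without WT_fenofibrate replicate 2 (adjusted p 0.0153 to 0.0455). Its interaction (interaction -0.24, SE 0.0935, adjusted p = 0.0618) was called with DESeq2, RLE scaling or the replicate block or without Irgm1KO_control replicate 3, Irgm1KO_fenofibrate replicate 2 or WT_fenofibrate replicate 2 (adjusted p 0.00178 to 0.0477). Its docking partner Pex13 was at 25.8, 27.3, 29.4 and 27.3 CPM in WT, 30.98, 32.1, 33.5 and 29.8 in Irgm1-KO, and 26.5, 27.3, 25.3 and 28.6 in Irgm_IFNAR-KO. The Irgm1-KO libraries were narrowly above WT (log2 fold change 0.20, SE 0.0697, adjusted p = 0.0357), and this call was lost without Irgm1-KO replicates 1, 2 or 3 or WT replicates 1, 2 or 4 (adjusted p 0.0535 to 0.0810) and with only the compared groups (adjusted p 0.0724). Pex13 in the second experiment was at 26.4, 25.3, 25.8 and 26.5 CPM in WT_control, 27.99, 27.1, 27.3 and 25.1 in WT_fenofibrate, 30.4, 28.8, 29.3 and 29.9 in Irgm1KO_control, and 27.2, 26.2, 27.4 and 26.5 in Irgm1KO_fenofibrate. It rose without Irgm1 (log2 fold change 0.19, SE 0.0408, adjusted p = 9.75e-04) and fell with fenofibrate in Irgm1KO cells (log2 fold change -0.14, adjusted p = 0.00877), with a negative interaction (interaction -0.19, SE 0.0577, adjusted p = 0.0204). The fenofibrate call was lost without the low-count filter (adjusted p = 0.0842), and so was the interaction without the low-count filter (adjusted p = 0.164).

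Pex5, the receptor that carries most matrix enzymes inward, was at 35.4, 27.8, 31.4 and 31.9 CPM in WT, 30.3, 30.7, 26.8 and 31.9 in Irgm1-KO, and 39.00, 36.4, 36.1 and 33.4 in Irgm_IFNAR-KO. WT and Irgm1-KO overlapped (log2 fold change -0.08, adjusted p = 0.510). Irgm_IFNAR-KO was above Irgm1-KO (log2 fold change 0.27, adjusted p = 0.0243). For Pex5 this call was lost without Irgm1-KO replicate 3 or Irgm_IFNAR-KO replicates 1, 2 or 3 (adjusted p 0.0526 to 0.105). Pex5 in the second experiment was at 38.6, 36.2, 38.4 and 38.5 CPM in WT_control, 38.1, 37.2, 38.97 and 37.8 in WT_fenofibrate, 28.1, 29.7, 28.9 and 29.6 in Irgm1KO_control, and 30.2, 31.6, 33.2 and 32.4 in Irgm1KO_fenofibrate. There it was lower in every untreated Irgm1KO library than in any WT library (log2 fold change -0.38, SE 0.0397, adjusted p = 6.26e-07) and rose slightly with fenofibrate in Irgm1KO (log2 fold change 0.13, adjusted p = 0.0116), staying under the untreated WT range. That rise was lost without the low-count filter (adjusted p = 0.0860). Pex7, the other import receptor, was at 12.5, 12.01, 11.8 and 11.8 CPM in WT_control, and 13.2, 13.9, 13.3 and 13.9 in Irgm1KO_control and rose by a small step (log2 fold change 0.17, SE 0.0440, adjusted p = 0.00297), a call lost without the low-count filter (adjusted p = 0.0807). It spread from 11.6 to 27.1 CPM within the WT libraries of the first experiment, where it was not called (log2 fold change -0.22, adjusted p = 0.547). The receptors of import thus moved in opposite ways in the second experiment.

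Pex11a, which promotes division of peroxisomes, rose with the drug in both genotypes. It was at 5.07, 6.02, 5.20 and 5.54 CPM in WT, 5.71, 6.06, 7.36 and 6.30 in Irgm1-KO, and 5.97, 5.72, 6.37 and 6.60 in Irgm_IFNAR-KO, and Irgm1-KO was called against WT (log2 fold change 0.22, adjusted p = 0.0921) only with DESeq2 or the Xist covariate (adjusted p 0.00905 to 0.0494). Pex11a in the second experiment was at 5.12, 5.01, 5.01 and 5.24 CPM in WT_control, 7.58, 8.36, 7.96 and 9.004 in WT_fenofibrate, 4.91, 6.10, 5.70 and 5.08 in Irgm1KO_control, and 5.98, 8.39, 7.13 and 6.69 in Irgm1KO_fenofibrate. All treated WT libraries exceeded all untreated ones (log2 fold change 0.69, SE 0.0955, adjusted p = 4.85e-05). Treated Irgm1KO libraries were higher with some overlap (log2 fold change 0.37, SE 0.0956, adjusted p = 0.00435). The interaction was not called (interaction -0.32, SE 0.135, adjusted p = 0.0873) except with the replicate block or without Irgm1KO_fenofibrate replicate 2 (adjusted p 0.00946 to 0.0114).

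Pex26 and Pex6, which take part in recycling the receptors, had smaller rises with fenofibrate. Pex26, the membrane anchor of the export ATPases, was at 9.93, 10.8, 10.2 and 11.04 CPM in WT_control, 12.1, 11.6, 11.01 and 14.6 in WT_fenofibrate, 10.5, 11.4, 11.5 and 10.8 in Irgm1KO_control, and 12.1, 12.5, 13.4 and 13.3 in Irgm1KO_fenofibrate. It rose in WT (log2 fold change 0.23, adjusted p = 0.0264) and in Irgm1KO cells (log2 fold change 0.22, adjusted p = 0.0296). The WT call was lost without WT_control replicates 1 or 3 or WT_fenofibrate replicate 4 (adjusted p 0.0799 to 0.110) and with no low-count filter or only the compared groups (adjusted p 0.0656 to 0.0741). The Irgm1KO call was lost without Irgm1KO_control replicates 1, 2 or 4 or Irgm1KO_fenofibrate replicates 3 or 4 (adjusted p 0.0629 to 0.0990) and with no low-count filter (adjusted p 0.0657). In Irgm1-KO against WT Pex26 was called higher only in other fits (adjusted p 0.0217 to 0.0455). These were DESeq2, the Xist covariate, the 3 outlying libraries left out, or a fit without Irgm1-KO replicate 3 or WT replicate 1. Pex6, one of those ATPases, was at 23.5, 22.9, 23.4 and 22.8 CPM in WT_control, 27.4, 24.5, 27.6 and 25.3 in WT_fenofibrate, 20.2, 22.2, 20.3 and 22.3 in Irgm1KO_control, and 22.6, 26.2, 23.8 and 25.03 in Irgm1KO_fenofibrate. It rose in WT (log2 fold change 0.18, adjusted p = 0.0199), a call lost without WT_fenofibrate replicates 1 or 3 (adjusted p 0.0632 to 0.0654) and with no low-count filter (adjusted p 0.0692), and in Irgm1KO cells (log2 fold change 0.20, adjusted p = 0.00684). In Irgm1KO_control against WT_control Pex6 was called lower only with the Xist covariate or only the compared groups or without Irgm1KO_control replicate 4 (adjusted p 0.0177 to 0.0465). Pex3, which receives membrane proteins from PEX19, was at 14.3, 13.3, 12.8 and 12.2 CPM in WT_control, and 14.9, 15.1, 15.1 and 14.9 in WT_fenofibrate and rose in WT (log2 fold change 0.19, adjusted p = 0.0248). For Pex3 this call was lost without WT_control replicates 2, 3 or 4 (adjusted p 0.0584 to 0.0839) and with no low-count filter (adjusted p 0.0866). Without Irgm1 Pex3 was called higher only in other fits. In the first experiment this was with the Xist covariate (adjusted p 0.0276). In the second it was without Irgm1KO_control replicate 2 or WT_control replicate 1 (adjusted p 0.0323 to 0.0465). Pex19, Pex2 and Pex11g were called in none of the 8 comparisons, and Pex10 in Irgm1KO_fenofibrate against WT_control alone. Other fits called some of them. Pex19 was lower in Irgm1KO_fenofibrate against Irgm1KO_control with DESeq2 or RLE scaling or without Irgm1KO_control replicate 4 or Irgm1KO_fenofibrate replicate 2 (adjusted p 0.0156 to 0.0327) and against WT_control with DESeq2 or RLE scaling or without Irgm1KO_fenofibrate replicate 2 or WT_control replicate 3 (adjusted p 0.0223 to 0.0465). With the Xist covariate Pex2 was called in all 3 comparisons of the first experiment, Pex19 in 2 and Pex10 in 1. Pex2 was then lower in Irgm1-KO than in WT, and higher in Irgm_IFNAR-KO than in either. It was also lower in Irgm1-KO without WT replicate 1 (adjusted p 0.0485). Pex2 was also called in Irgm1KO_control with only the compared groups (adjusted p 0.0275), and Pex10 in treated WT with the replicate block (adjusted p 0.0473). Pex19 ranged from 41.4 to 56.9 CPM in the first experiment and from 41.6 to 47.5 in the second, Pex2 from 27.0 to 43.6 and from 26.3 to 31.5, and Pex11g from 0.87 to 2.17 and from 1.15 to 1.73. Pex10 ranged from 2.93 to 4.83 and from 2.82 to 4.05 CPM.

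**Figure D3:**
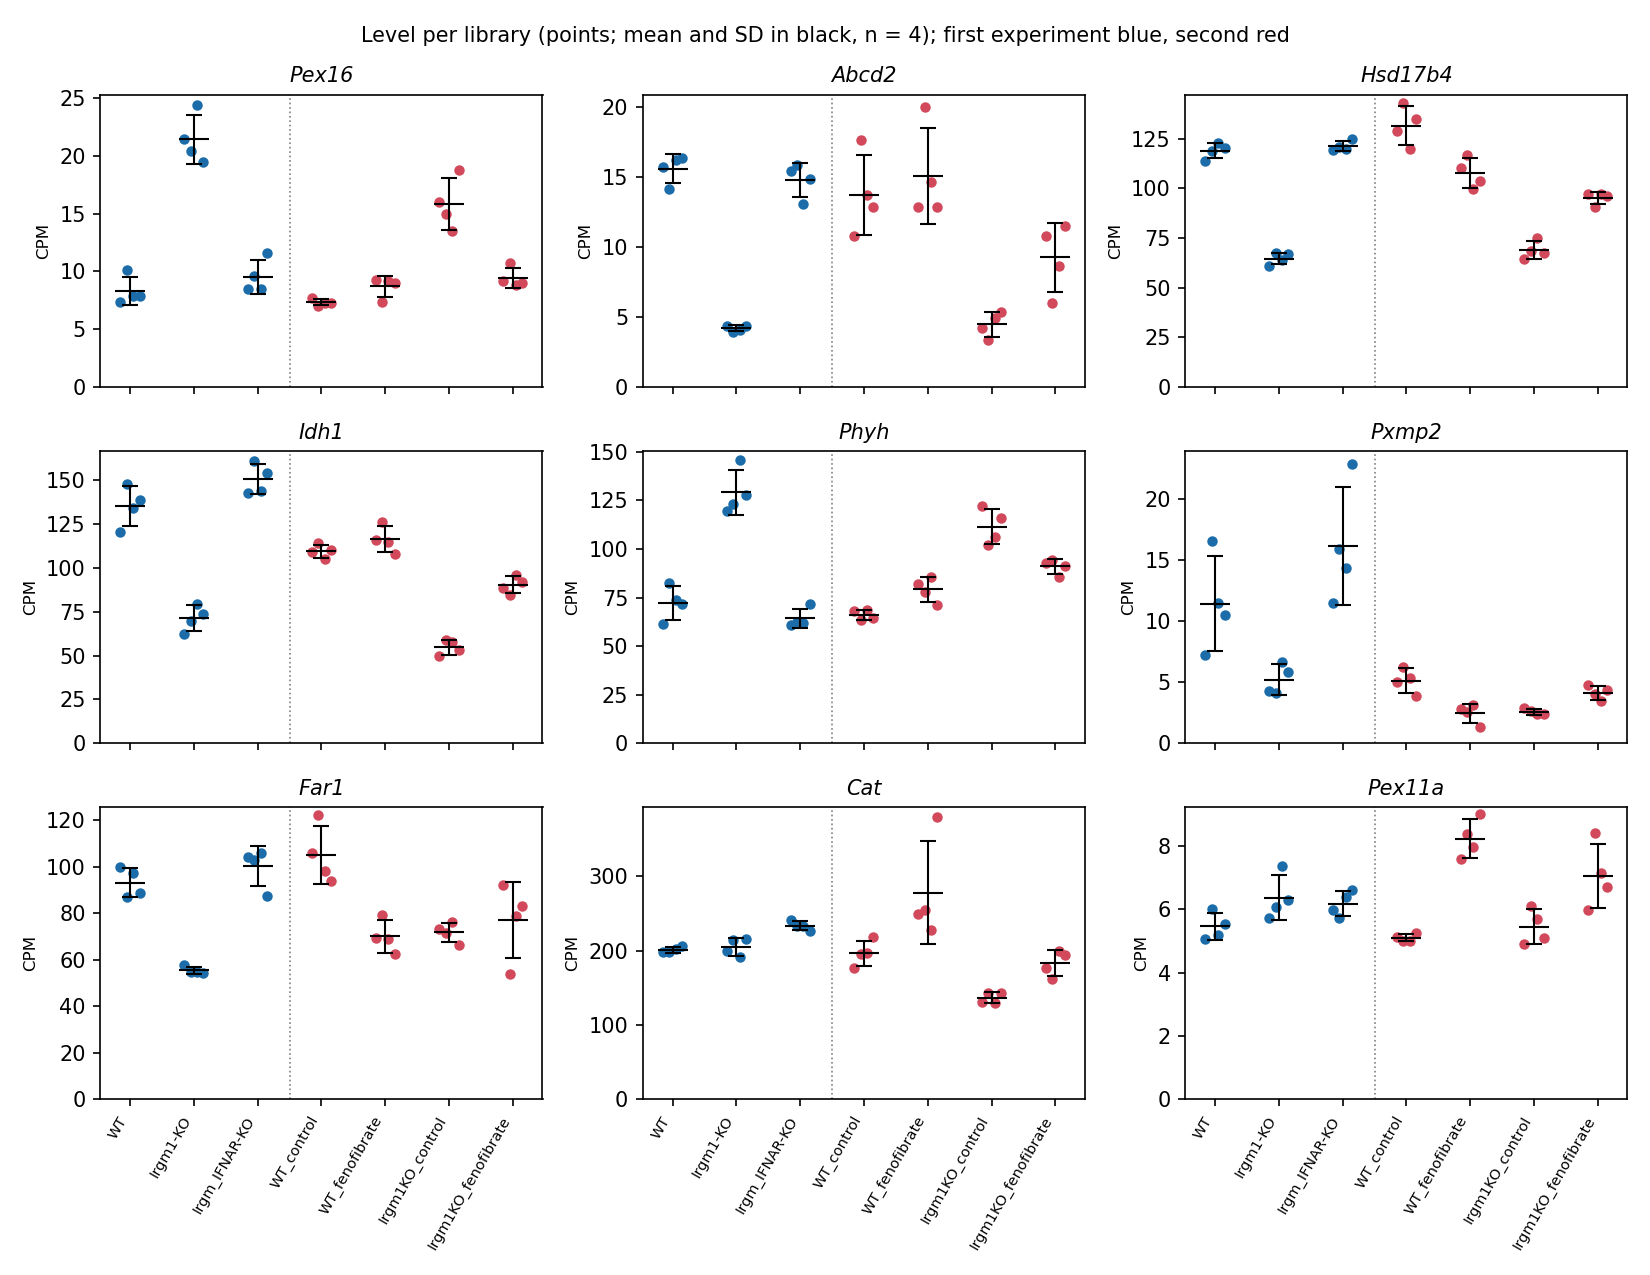
Level (CPM, linear axis from 0) of 9 members in every library; blue points are the first and red points the second experiment, and black marks are the group mean with its SD (n = 4). Pex16 and Phyh are highest in the Irgm1-KO and Irgm1KO_control groups, Abcd2, Hsd17b4 and Idh1 are lowest there, and Pex11a is highest in WT_fenofibrate.

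Of the 7 membrane proteins, 4 fell and 1 rose in Irgm1-KO, beside 20.7% and 19.8% of all genes tested. Abcd2, an ABC half-transporter that brings very-long-chain acyl-CoA into the peroxisome, was at 15.7, 14.1, 16.2 and 16.3 CPM in WT, 4.37, 3.94, 4.04 and 4.36 in Irgm1-KO, and 15.4, 15.8, 13.02 and 14.8 in Irgm_IFNAR-KO. Irgm1-KO libraries were all under the lowest library of the other groups (log2 fold change -1.90, SE 0.0861, adjusted p = 1.58e-08 against WT), and Irgm_IFNAR-KO overlapped WT (log2 fold change -0.08, adjusted p = 0.692) and exceeded Irgm1-KO (log2 fold change 1.82, adjusted p = 9.58e-09). Abcd2 in the second experiment was at 10.8, 17.6, 13.7 and 12.8 CPM in WT_control, 12.8, 19.99, 14.6 and 12.8 in WT_fenofibrate, 4.22, 3.32, 4.94 and 5.34 in Irgm1KO_control, and 10.8, 5.98, 8.66 and 11.5 in Irgm1KO_fenofibrate. Untreated Irgm1KO cells were again lowest (log2 fold change -1.62, SE 0.219, adjusted p = 1.44e-05). Fenofibrate raised Abcd2 in them (log2 fold change 1.05, SE 0.218, adjusted p = 9.66e-04) but was not called in WT (log2 fold change 0.14, adjusted p = 0.663). The interaction was positive (interaction 0.92, SE 0.301, adjusted p = 0.0322). That call was lost without Irgm1KO_control replicates 1 or 2 or Irgm1KO_fenofibrate replicates 1 or 4 or WT_control replicates 2 or 3 or WT_fenofibrate replicates 1, 3 or 4 (adjusted p 0.0542 to 0.0775) and with no low-count filter (adjusted p 0.100).

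Abcd3, the most abundant transporter of this family in peroxisomal membranes and a common marker of the organelle, moved the other way. It was at 62.7, 55.9, 63.01 and 62.5 CPM in WT, 88.4, 91.1, 82.2 and 89.5 in Irgm1-KO, and 52.3, 50.6, 53.9 and 47.3 in Irgm_IFNAR-KO. Irgm1-KO lay above and Irgm_IFNAR-KO below WT, with no overlap among the 3 groups (log2 fold change 0.53, SE 0.0703, adjusted p = 7.78e-05 for Irgm1-KO against WT, and log2 fold change -0.78, adjusted p = 2.40e-06 for Irgm_IFNAR-KO against Irgm1-KO). The fall against WT in Irgm_IFNAR-KO (log2 fold change -0.26, adjusted p = 0.0310) was lost without Irgm_IFNAR-KO replicates 1, 2 or 4 or WT replicates 1, 3 or 4 (adjusted p 0.0689 to 0.0991) and with only the compared groups (adjusted p 0.0703). Abcd3 in the second experiment was at 74.8, 74.4, 74.3 and 73.1 CPM in WT_control, 71.6, 69.5, 70.5 and 70.7 in WT_fenofibrate, 87.2, 91.3, 89.2 and 91.4 in Irgm1KO_control, and 72.1, 63.7, 71.98 and 76.3 in Irgm1KO_fenofibrate. It rose without Irgm1 (log2 fold change 0.28, SE 0.0460, adjusted p = 8.88e-05) and fell with fenofibrate in Irgm1KO cells (log2 fold change -0.34, adjusted p = 1.69e-05), with a negative interaction (interaction -0.27, SE 0.0650, adjusted p = 0.00563). Abcd4, a relative known to act in vitamin B12 transport at lysosomes, was at 10.7, 9.79, 10.2 and 9.89 CPM in WT_control, and 11.95, 11.2, 12.8 and 12.8 in Irgm1KO_control and rose (log2 fold change 0.27, SE 0.0670, adjusted p = 0.00298). In the first experiment its sign was the same (log2 fold change 0.19, adjusted p = 0.0735) and it was called only with DESeq2, the Xist covariate or the 3 outlying libraries left out or without Irgm1-KO replicate 3 (adjusted p 0.00991 to 0.0431).

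Pxmp2, a channel protein of the peroxisomal membrane, was at 7.17, 16.5, 11.5 and 10.5 CPM in WT, 4.27, 4.07, 6.63 and 5.82 in Irgm1-KO, and 11.5, 15.9, 14.3 and 22.8 in Irgm_IFNAR-KO. Irgm1-KO lay below both other groups (log2 fold change -1.13, SE 0.272, adjusted p = 0.00549 against WT, and log2 fold change 1.63, adjusted p = 4.28e-04 for Irgm_IFNAR-KO against Irgm1-KO), although the WT libraries spread more than 2-fold. Pxmp2 in the second experiment was at 4.97, 6.26, 5.36 and 3.84 CPM in WT_control, 2.77, 2.55, 3.14 and 1.33 in WT_fenofibrate, 2.87, 2.59, 2.37 and 2.37 in Irgm1KO_control, and 4.74, 3.98, 3.42 and 4.34 in Irgm1KO_fenofibrate. The groups changed in opposite ways with the drug, down in WT (log2 fold change -1.06, SE 0.205, adjusted p = 8.66e-04) and up in Irgm1KO (log2 fold change 0.69, SE 0.205, adjusted p = 0.0118), and its interaction had the largest size among the members called (interaction 1.75, SE 0.290, adjusted p = 3.37e-04). Without Irgm1 it fell (log2 fold change -0.997, adjusted p = 6.29e-04). Pxmp2 overlaps the predicted gene Gm15788 on the other strand.

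Pxmp4, a membrane protein of unsettled function, was at 14.6, 15.5, 14.6 and 15.7 CPM in WT, 9.59, 9.87, 8.88 and 9.33 in Irgm1-KO, and 15.4, 16.6, 15.8 and 18.7 in Irgm_IFNAR-KO. Irgm1-KO was below WT and Irgm_IFNAR-KO in every library (log2 fold change -0.68, SE 0.0762, adjusted p = 1.84e-05, and log2 fold change 0.82, adjusted p = 3.14e-06 for Irgm_IFNAR-KO against Irgm1-KO). Pxmp4 in the second experiment was at 14.9, 14.8, 15.4 and 14.2 CPM in WT_control, 13.9, 11.9, 13.8 and 11.8 in WT_fenofibrate, 8.55, 9.59, 9.10 and 9.83 in Irgm1KO_control, and 12.1, 13.8, 12.99 and 11.7 in Irgm1KO_fenofibrate. It was lower without Irgm1 (log2 fold change -0.68, SE 0.0721, adjusted p = 8.28e-07) and rose with fenofibrate in Irgm1KO cells (log2 fold change 0.45, adjusted p = 8.95e-05). In WT it fell with the drug (log2 fold change -0.21, adjusted p = 0.0329), a call lost without WT_control replicates 1 or 3 or WT_fenofibrate replicates 2 or 4 (adjusted p 0.0585 to 0.109) and with no low-count filter (adjusted p 0.0665). The interaction was positive (interaction 0.65, SE 0.102, adjusted p = 1.79e-04).

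Slc25a17, the carrier of nucleotide cofactors across the peroxisomal membrane, was at 33.1, 48.5, 41.5 and 39.4 CPM in WT, 26.7, 27.3, 32.5 and 27.7 in Irgm1-KO, and 37.7, 43.7, 39.3 and 45.7 in Irgm_IFNAR-KO. The Irgm1-KO libraries were the lowest (log2 fold change -0.51, SE 0.117, adjusted p = 0.00416). Irgm_IFNAR-KO exceeded them (log2 fold change 0.54, adjusted p = 0.00251). Slc25a17 in the second experiment was at 32.96, 32.9, 33.7 and 32.5 CPM in WT_control, 36.6, 33.8, 36.3 and 32.7 in WT_fenofibrate, 27.3, 27.2, 28.1 and 25.5 in Irgm1KO_control, and 34.5, 32.8, 33.2 and 35.5 in Irgm1KO_fenofibrate. It fell when Irgm1 was missing (log2 fold change -0.29, SE 0.0458, adjusted p = 5.45e-05) and rose with the drug in Irgm1KO (log2 fold change 0.33, adjusted p = 2.05e-05) but was not called in WT (log2 fold change 0.08, adjusted p = 0.205). The interaction was positive (interaction 0.25, SE 0.0646, adjusted p = 0.00784). Mpv17, a relative of PXMP2 that is best known as a mitochondrial inner membrane protein, was at 23.7, 23.9, 23.2 and 23.7 CPM in WT_control, 24.01, 23.5, 22.5 and 25.2 in WT_fenofibrate, 17.7, 18.4, 19.4 and 19.6 in Irgm1KO_control, and 19.5, 24.2, 23.3 and 22.00 in Irgm1KO_fenofibrate. Its level fell without Irgm1 (log2 fold change -0.33, SE 0.0607, adjusted p = 2.12e-04) and rose with fenofibrate in Irgm1KO (log2 fold change 0.25, adjusted p = 0.00333). Its positive interaction (interaction 0.23, SE 0.0857, adjusted p = 0.0489) was lost without Irgm1KO_control replicates 1, 2 or 4 or Irgm1KO_fenofibrate replicates 2, 3 or 4 or WT_control replicates 1, 2, 3 or 4 or WT_fenofibrate replicates 1, 2 or 3 (adjusted p 0.0604 to 0.110) and with no low-count filter (adjusted p 0.115). In the first experiment Mpv17 spread from 21.5 to 39.5 CPM in WT, and its fall in Irgm1-KO (log2 fold change -0.41, adjusted p = 0.108) was called only with the Xist covariate or the 3 outlying libraries left out or without Irgm1-KO replicate 3 or WT replicate 1 (adjusted p 0.00656 to 0.0294). Of the 7 membrane proteins, 5 thus had a called positive and 1 a called negative interaction, beside 14.9% and 14.7% of all genes tested. The list is short, and the calls of Abcd2 and Mpv17 among these 5 were lost in many fits that left out 1 library.

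Of 9 beta-oxidation enzymes, Hsd17b4, Pecr and Scp2 fell in Irgm1-KO, beside 20.7% of all genes tested. Hsd17b4, the multifunctional enzyme of the D-specific branch, was at 114, 119, 123 and 120.3 CPM in WT, 60.9, 67.3, 63.8 and 66.8 in Irgm1-KO, and 119.5, 121, 119.8 and 125 in Irgm_IFNAR-KO. The Irgm1-KO libraries were far under the other 8, which overlapped one another (log2 fold change -0.88, SE 0.0618, adjusted p = 4.04e-07 against WT, and log2 fold change 0.91, adjusted p = 2.14e-07 for Irgm_IFNAR-KO against Irgm1-KO). Hsd17b4 in the second experiment was at 129, 143, 119.7 and 135 CPM in WT_control, 110.1, 117, 99.9 and 104 in WT_fenofibrate, 64.6, 68.6, 75.3 and 67.7 in Irgm1KO_control, and 97.2, 90.9, 97.2 and 96.1 in Irgm1KO_fenofibrate. It fell without Irgm1 (log2 fold change -0.93, SE 0.0630, adjusted p = 6.41e-09), fell with fenofibrate in WT (log2 fold change -0.29, adjusted p = 0.00196) and rose with it in Irgm1KO (log2 fold change 0.47, adjusted p = 1.49e-05), where it stayed under the WT control range. The interaction was positive (interaction 0.75, SE 0.0885, adjusted p = 1.68e-05). Ehhadh, the multifunctional enzyme of the L-specific branch, was far lower in level, at 3.16, 3.17, 1.99 and 2.89 CPM in WT, 2.50, 4.07, 2.89 and 3.06 in Irgm1-KO, and 1.86, 2.22, 1.83 and 1.72 in Irgm_IFNAR-KO. Against Irgm1-KO it fell in Irgm_IFNAR-KO (log2 fold change -0.72, SE 0.181, adjusted p = 0.00672), the only beta-oxidation enzyme to do so. Ehhadh in the second experiment was at 2.96, 2.72, 3.44 and 3.31 CPM in WT_control, 3.79, 2.94, 4.88 and 3.34 in WT_fenofibrate, 3.02, 2.39, 2.10 and 1.64 in Irgm1KO_control, and 3.51, 3.06, 2.64 and 2.68 in Irgm1KO_fenofibrate. Its fall without Irgm1 (log2 fold change -0.44, adjusted p = 0.0458) was lost without Irgm1KO_control replicates 2, 3 or 4 or WT_control replicates 1, 3 or 4 (adjusted p 0.0620 to 0.147) and with no low-count filter (adjusted p 0.0544). The rise with the drug in Irgm1KO (log2 fold change 0.37, adjusted p = 0.0989) was called only with the replicate block or without Irgm1KO_control replicate 1 (adjusted p 0.00639 to 0.0215).

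Pecr, a trans-2-enoyl-CoA reductase, was at 2.56, 3.39, 3.57 and 2.67 CPM in WT, 0.870, 1.48, 1.42 and 1.40 in Irgm1-KO, and 2.91, 3.13, 2.85 and 2.92 in Irgm_IFNAR-KO. Irgm1-KO was lowest in every library (log2 fold change -1.23, SE 0.167, adjusted p = 9.37e-05). Irgm_IFNAR-KO lay in the WT range (log2 fold change 1.18, adjusted p = 1.12e-04 against Irgm1-KO). Pecr in the second experiment was at 3.90, 3.18, 2.98 and 3.62 CPM in WT_control, 4.33, 3.88, 4.15 and 4.15 in WT_fenofibrate, 1.70, 2.30, 2.86 and 2.19 in Irgm1KO_control, and 3.68, 4.18, 4.03 and 3.12 in Irgm1KO_fenofibrate. It fell when Irgm1 was missing (log2 fold change -0.60, SE 0.136, adjusted p = 0.00127) and rose with fenofibrate in Irgm1KO (log2 fold change 0.74, SE 0.136, adjusted p = 3.06e-04). In WT (log2 fold change 0.27, adjusted p = 0.129) it was called only with the replicate block (adjusted p 0.0392), and the interaction (interaction 0.47, SE 0.189, adjusted p = 0.0756) only with the replicate block or without Irgm1KO_control replicate 3 or Irgm1KO_fenofibrate replicate 4 (adjusted p 0.0173 to 0.0432). Scp2, whose longer product is the thiolase for branched chains and whose shorter product is a lipid carrier, was at 96.9, 128, 112 and 109 CPM in WT, 63.7, 67.6, 80.1 and 65.7 in Irgm1-KO, and 103, 107, 100.5 and 117 in Irgm_IFNAR-KO. Irgm1-KO was the lowest group (log2 fold change -0.69, SE 0.101, adjusted p = 1.80e-04, and log2 fold change 0.62, adjusted p = 3.43e-04 for Irgm_IFNAR-KO against Irgm1-KO). Scp2 in the second experiment was at 92.1, 93.6, 94.3 and 86.4 CPM in WT_control, 78.6, 77.9, 79.3 and 66.7 in WT_fenofibrate, 68.6, 67.2, 74.8 and 69.4 in Irgm1KO_control, and 79.2, 73.7, 76.1 and 77.8 in Irgm1KO_fenofibrate. Its level fell without Irgm1 (log2 fold change -0.39, SE 0.0554, adjusted p = 1.85e-05) and fell with fenofibrate in WT (log2 fold change -0.28, adjusted p = 0.00104). In Irgm1KO it was not called with the drug (log2 fold change 0.13, adjusted p = 0.0622) except with the replicate block or without Irgm1KO_control replicate 3 (adjusted p 0.0191 to 0.0313). The interaction was positive (interaction 0.41, SE 0.0783, adjusted p = 9.91e-04).

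Acox3, an acyl-CoA oxidase for branched chains, was at 179, 179.8, 196 and 179.9 CPM in WT_control, 201, 198, 212 and 187 in WT_fenofibrate, 122, 134, 137 and 141 in Irgm1KO_control, and 160.3, 172, 175 and 173 in Irgm1KO_fenofibrate. It was lower without Irgm1 (log2 fold change -0.46, SE 0.0532, adjusted p = 2.05e-06) and rose with fenofibrate in Irgm1KO (log2 fold change 0.35, adjusted p = 4.90e-05), while WT was called only with the replicate block (log2 fold change 0.12, adjusted p = 0.0210). Its positive interaction (interaction 0.23, SE 0.0751, adjusted p = 0.0293) was lost without Irgm1KO_control replicates 1 or 2 or Irgm1KO_fenofibrate replicates 3 or 4 or WT_control replicate 3 or WT_fenofibrate replicate 4 (adjusted p 0.0537 to 0.0813). In the first experiment the Irgm1-KO and WT libraries overlapped (log2 fold change -0.21, adjusted p = 0.137), and Acox3 was called only with the Xist covariate or the 3 outlying libraries left out or without WT replicate 2 (adjusted p 0.00192 to 0.0238).

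Ech1, an enoyl-CoA isomerase also found in mitochondria, was at 41.1, 38.3, 43.3 and 40.7 CPM in WT_control, 48.1, 44.1, 50.6 and 45.9 in WT_fenofibrate, 40.9, 41.01, 41.7 and 41.9 in Irgm1KO_control, and 49.5, 55.03, 49.6 and 50.9 in Irgm1KO_fenofibrate. Treated libraries exceeded untreated ones in WT (log2 fold change 0.21, SE 0.0501, adjusted p = 0.00394) and in Irgm1KO (log2 fold change 0.31, SE 0.0501, adjusted p = 9.31e-05). The interaction was not called (interaction 0.10, SE 0.0708, adjusted p = 0.320). Amacr, the racemase that readies branched chains for oxidation, was at 3.15, 3.37, 3.42 and 3.72 CPM in WT_control, 4.36, 4.33, 4.03 and 4.59 in WT_fenofibrate, 3.22, 3.95, 3.20 and 3.43 in Irgm1KO_control, and 4.64, 4.60, 4.37 and 4.13 in Irgm1KO_fenofibrate. It too rose in both genotypes (log2 fold change 0.34, SE 0.0817, adjusted p = 0.00388 in WT, and log2 fold change 0.36, SE 0.0819, adjusted p = 0.00165 in Irgm1KO) with an interaction of 0.02 (95% interval -0.22 to 0.27). Decr2, the peroxisomal dienoyl-CoA reductase, was at 24.3, 21.7, 24.4 and 22.8 CPM in WT_control, and 26.8, 24.6, 28.1 and 27.6 in WT_fenofibrate and rose in WT (log2 fold change 0.20, adjusted p = 0.0118). For Decr2 this call was lost without WT_control replicate 2 (adjusted p 0.0503). Acaa1a, the thiolase of straight chains, went down instead, at 67.6, 68.2, 71.6 and 63.9 CPM in WT_control, 54.6, 47.6, 60.5 and 48.5 in WT_fenofibrate, 73.8, 75.1, 69.3 and 81.7 in Irgm1KO_control, and 54.1, 68.97, 53.3 and 53.2 in Irgm1KO_fenofibrate. It fell in WT (log2 fold change -0.36, SE 0.0884, adjusted p = 0.00445) and in Irgm1KO (log2 fold change -0.39, SE 0.0883, adjusted p = 0.00190). Its near-identical copy Acaa1b did not pass the filter, so reads of the pair are uncertain, and Acaa1a also overlaps Myd88 on the other strand. None of Ech1, Amacr, Decr2 and Acaa1a was called for Irgm1 loss in either experiment, except that other fits called Acaa1a higher, in the first with the Xist covariate or the 3 outlying libraries left out (adjusted p 0.00819 to 0.0411) and in the second with only the compared groups (adjusted p 0.0411).

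In the list of acyl-CoA handling, 2 of 6 fell in Irgm1-KO, beside 20.7% of all genes tested. In Irgm1KO_control 4 of 7 fell and 2 rose, beside 26.1% and 27.3%. These counts include Nudt12, which is listed here although it acts on nucleotides. Nudt12, a hydrolase of NADH and related nucleotides, was at 1.63, 2.59, 2.04 and 2.43 CPM in WT, 1.04, 1.40, 1.95 and 1.58 in Irgm1-KO, and 1.77, 1.75, 1.72 and 1.72 in Irgm_IFNAR-KO. The Irgm1-KO libraries overlapped WT (log2 fold change -0.54, SE 0.186, adjusted p = 0.0371). The call was lost without Irgm1-KO replicates 1, 2 or 4 or WT replicates 2, 3 or 4 (adjusted p 0.0561 to 0.0976) and with only the compared groups (adjusted p 0.0904). Nudt12 in the second experiment was at 3.04, 2.62, 2.81 and 3.53 CPM in WT_control, 5.80, 5.20, 5.57 and 5.63 in WT_fenofibrate, 1.33, 1.85, 2.40 and 1.55 in Irgm1KO_control, and 2.80, 2.71, 3.72 and 3.36 in Irgm1KO_fenofibrate. It fell without Irgm1 (log2 fold change -0.76, SE 0.155, adjusted p = 5.70e-04) and rose with fenofibrate in WT (log2 fold change 0.89, SE 0.149, adjusted p = 2.80e-04) and in Irgm1KO (log2 fold change 0.82, SE 0.155, adjusted p = 3.68e-04). The interaction was -0.06 (95% interval -0.52 to 0.39), and Nudt12 overlaps the antisense gene Nudt12os.

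Crat, the carnitine acetyltransferase that exports acetyl units, was at 98.95, 82.4, 92.3 and 91.8 CPM in WT, 76.4, 80.9, 67.3 and 73.7 in Irgm1-KO, and 90.5, 87.4, 85.6 and 83.5 in Irgm_IFNAR-KO. It was lower in the Irgm1-KO libraries than in WT (log2 fold change -0.29, SE 0.0780, adjusted p = 0.00971). Its rise in Irgm_IFNAR-KO against Irgm1-KO (log2 fold change 0.22, adjusted p = 0.0392) was lost without Irgm1-KO replicates 1, 3 or 4 or Irgm_IFNAR-KO replicates 1, 2 or 3 (adjusted p 0.0646 to 0.138) and with RLE scaling or only the compared groups (adjusted p 0.0699 to 0.0700). Crat in the second experiment was at 97.1, 93.1, 96.9 and 95.00 CPM in WT_control, 93.2, 88.7, 90.7 and 82.8 in WT_fenofibrate, 74.4, 80.3, 78.3 and 77.7 in Irgm1KO_control, and 90.4, 107, 96.01 and 91.7 in Irgm1KO_fenofibrate. Its level fell without Irgm1 (log2 fold change -0.30, SE 0.0522, adjusted p = 1.35e-04) and rose with the drug in Irgm1KO (log2 fold change 0.31, adjusted p = 1.37e-04) but was not called in WT (log2 fold change -0.10, adjusted p = 0.134) except with only the compared groups (adjusted p 0.0490), with a positive interaction (interaction 0.41, SE 0.0738, adjusted p = 5.63e-04). Crot, the carnitine octanoyltransferase, was at 46.9, 46.6, 48.1 and 48.2 CPM in WT_control, and 39.95, 38.9, 42.99 and 43.6 in Irgm1KO_control and fell (log2 fold change -0.20, adjusted p = 0.0112). For Crot this call was lost without Irgm1KO_control replicate 2 (adjusted p 0.0538). In Irgm1-KO against WT Crot was called lower only in other fits (adjusted p 0.0103 to 0.0421). These had the Xist covariate, the 3 outlying libraries left out, or no Irgm1-KO replicate 3 or WT replicate 1.

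Acot8, an acyl-CoA thioesterase, was at 10.5, 9.69, 10.5 and 9.90 CPM in WT_control, 9.90, 8.78, 9.30 and 9.28 in WT_fenofibrate, 13.6, 13.2, 12.6 and 13.3 in Irgm1KO_control, and 9.90, 12.02, 9.62 and 10.4 in Irgm1KO_fenofibrate. It rose without Irgm1 (log2 fold change 0.38, SE 0.0671, adjusted p = 1.50e-04) and fell with fenofibrate in Irgm1KO (log2 fold change -0.33, adjusted p = 6.38e-04), and in the first experiment, where WT spread from 14.05 to 26.6 CPM, it was called for Irgm1 loss only with the Xist covariate (adjusted p 0.00564). Acot4, a succinyl-CoA thioesterase, was near the limit of measurement, at 0.0313, 0.0351, 0.0550 and 0.0169 CPM in WT_control, 0.102, 0.0366, 0.0457 and 0.0808 in WT_fenofibrate, 0.0246, 0.0592, 0.0217 and 0.0497 in Irgm1KO_control, and 0.225, 0.167, 0.164 and 0.216 in Irgm1KO_fenofibrate. These levels correspond to at most 19 counts per library. It rose in Irgm1KO (log2 fold change 2.30, SE 0.384, adjusted p = 1.23e-04), where the treated libraries exceeded all 12 others, and it was not called in WT (log2 fold change 0.97, adjusted p = 0.110). Nudt7, which cleaves coenzyme A, was at 9.30, 8.87, 9.94 and 9.27 CPM in WT_control, 7.65, 8.21, 7.22 and 8.01 in WT_fenofibrate, 7.69, 7.79, 9.26 and 7.85 in Irgm1KO_control, and 6.41, 7.56, 7.11 and 7.43 in Irgm1KO_fenofibrate. It fell with fenofibrate in WT (log2 fold change -0.26, adjusted p = 0.0101) and in Irgm1KO (log2 fold change -0.19, adjusted p = 0.0432), the latter lost without Irgm1KO_control replicate 3 or Irgm1KO_fenofibrate replicates 1 or 3 (adjusted p 0.0828 to 0.168) and with no low-count filter or only the compared groups (adjusted p 0.0979 to 0.127). Its fall without Irgm1 (log2 fold change -0.20, adjusted p = 0.0320) was lost without Irgm1KO_control replicates 1, 2 or 4 or WT_control replicates 1, 3 or 4 (adjusted p 0.0534 to 0.0976) and with no low-count filter (adjusted p 0.0627). Nudt19, another coenzyme A hydrolase, was at 31.99, 35.2, 31.9 and 31.7 CPM in WT_control, 30.00, 30.5, 28.8 and 28.7 in WT_fenofibrate, 39.8, 33.7, 34.02 and 38.3 in Irgm1KO_control, and 37.4, 36.5, 34.7 and 34.95 in Irgm1KO_fenofibrate. Its rise without Irgm1 (log2 fold change 0.16, adjusted p = 0.0260) was lost without Irgm1KO_control replicates 1 or 4 or WT_control replicates 1, 3 or 4 (adjusted p 0.0629 to 0.109) and with no low-count filter or only the compared groups (adjusted p 0.0514 to 0.102). Its fall in treated WT (log2 fold change -0.15, adjusted p = 0.0489) was lost without WT_control replicates 1, 2, 3 or 4 or WT_fenofibrate replicates 1, 2, 3 or 4 (adjusted p 0.0514 to 0.150) and with the Xist covariate or no low-count filter (adjusted p 0.0573 to 0.109).

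Alpha-oxidation was represented by 2 enzymes with opposite signs for Irgm1 loss, of which only Phyh was called in the main fits. Hacl1 had few counts, 16 to 31 per library in WT and 13 to 16 in Irgm1-KO, and 27 to 51 in WT_control and 17 to 30 in Irgm1KO_control. Phyh, the hydroxylase that starts the breakdown of phytanic acid, was at 61.3, 82.3, 73.7 and 71.5 CPM in WT, 119.8, 123, 146 and 128 in Irgm1-KO, and 60.97, 62.4, 61.9 and 71.6 in Irgm_IFNAR-KO. Irgm1-KO was highest in every library (log2 fold change 0.84, SE 0.101, adjusted p = 3.68e-05 against WT, and log2 fold change -1.01, adjusted p = 6.81e-06 for Irgm_IFNAR-KO against Irgm1-KO), and WT and Irgm_IFNAR-KO overlapped (log2 fold change -0.17, adjusted p = 0.380). Phyh in the second experiment was at 67.96, 63.6, 68.6 and 64.2 CPM in WT_control, 81.9, 77.9, 85.8 and 70.9 in WT_fenofibrate, 122, 102, 106 and 116 in Irgm1KO_control, and 92.9, 94.3, 85.7 and 91.2 in Irgm1KO_fenofibrate. It rose without Irgm1 (log2 fold change 0.76, SE 0.0642, adjusted p = 6.92e-08), rose with fenofibrate in WT (log2 fold change 0.26, adjusted p = 0.00473) and fell with it in Irgm1KO (log2 fold change -0.29, adjusted p = 0.00119). The interaction was negative (interaction -0.55, SE 0.0903, adjusted p = 2.70e-04). Treated Irgm1KO libraries lay between the untreated WT and the untreated Irgm1KO ranges. Hacl1, the lyase of the next step, was at 0.326, 0.673, 0.484 and 0.407 CPM in WT, 0.340, 0.269, 0.254 and 0.216 in Irgm1-KO, and 0.374, 0.268, 0.448 and 0.764 in Irgm_IFNAR-KO. It had a negative fold change in Irgm1-KO (log2 fold change -0.80, adjusted p = 0.0772) that was called only with only the compared groups or without WT replicate 1 (adjusted p 0.0443 to 0.0497). Hacl1 in the second experiment was at 0.292, 0.339, 0.297 and 0.430 CPM in WT_control, 0.532, 0.503, 0.457 and 0.356 in WT_fenofibrate, 0.246, 0.276, 0.272 and 0.211 in Irgm1KO_control, and 0.399, 0.344, 0.349 and 0.352 in Irgm1KO_fenofibrate. It rose with fenofibrate in Irgm1KO (log2 fold change 0.51, adjusted p = 0.0331). This was lost without Irgm1KO_control replicates 1 or 4 or Irgm1KO_fenofibrate replicates 1, 3 or 4 (adjusted p 0.0512 to 0.0979) and with DESeq2, no low-count filter or the replicate block (adjusted p 0.0721 to 0.121).

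Transcripts for 2 steps of ether lipid synthesis were lower without Irgm1. Far1, the reductase that supplies the fatty alcohol and sets the rate of the pathway, was at 99.9, 86.9, 97.1 and 88.5 CPM in WT, 57.8, 54.8, 54.9 and 54.3 in Irgm1-KO, and 104, 103, 106 and 87.3 in Irgm_IFNAR-KO. All Irgm1-KO libraries were lower than all others (log2 fold change -0.75, SE 0.0793, adjusted p = 1.20e-05 against WT, and log2 fold change 0.85, adjusted p = 3.30e-06 for Irgm_IFNAR-KO against Irgm1-KO). Far1 in the second experiment was at 106, 122, 98.1 and 93.96 CPM in WT_control, 69.5, 79.4, 68.8 and 62.3 in WT_fenofibrate, 73.2, 71.3, 76.2 and 66.1 in Irgm1KO_control, and 91.9, 53.9, 78.9 and 83.1 in Irgm1KO_fenofibrate. It was lower without Irgm1 (log2 fold change -0.55, SE 0.129, adjusted p = 0.00188) and also with fenofibrate in WT (log2 fold change -0.59, SE 0.129, adjusted p = 0.00238), to a range that overlapped untreated Irgm1KO cells. In Irgm1KO the drug was not called (log2 fold change 0.10, adjusted p = 0.549), with treated libraries spread from 53.9 to 91.9 CPM, and the interaction was positive (interaction 0.69, SE 0.182, adjusted p = 0.00991). Far1 overlaps the antisense gene Far1os.

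Gnpat, the acyltransferase that begins ether lipid synthesis, was at 40.3, 40.5, 41.7 and 38.9 CPM in WT, 28.8, 30.9, 28.2 and 28.9 in Irgm1-KO, and 39.2, 39.5, 41.3 and 39.9 in Irgm_IFNAR-KO. Irgm1-KO stood below both other groups (log2 fold change -0.47, SE 0.0593, adjusted p = 5.26e-05, and log2 fold change 0.45, adjusted p = 5.80e-05 for Irgm_IFNAR-KO against Irgm1-KO). Gnpat in the second experiment was at 47.5, 47.2, 44.1 and 48.5 CPM in WT_control, 49.1, 47.8, 48.5 and 52.2 in WT_fenofibrate, 36.6, 36.8, 39.3 and 36.3 in Irgm1KO_control, and 49.5, 49.8, 49.3 and 48.3 in Irgm1KO_fenofibrate. It fell when Irgm1 was missing (log2 fold change -0.33, SE 0.0423, adjusted p = 6.01e-06) and rose with fenofibrate in Irgm1KO (log2 fold change 0.40, SE 0.0423, adjusted p = 1.16e-06) to a range that overlapped treated WT cells, and the interaction was positive (interaction 0.32, SE 0.0596, adjusted p = 7.36e-04). Agps, which swaps the acyl chain for the alcohol, was at 113, 111, 110.2 and 106 CPM in WT, 110.2, 103, 102 and 103 in Irgm1-KO, and 115, 125, 123 and 113 in Irgm_IFNAR-KO. It was not called against WT (log2 fold change -0.07, adjusted p = 0.389). Its rise in Irgm_IFNAR-KO against Irgm1-KO (log2 fold change 0.19, adjusted p = 0.0326) was lost without Irgm1-KO replicates 2, 3 or 4 or Irgm_IFNAR-KO replicates 1, 2 or 3 (adjusted p 0.0592 to 0.122) and with RLE scaling or only the compared groups (adjusted p 0.0553 to 0.0921). Agps in the second experiment was at 126, 134, 121 and 117 CPM in WT_control, 111, 124, 123 and 117 in WT_fenofibrate, 119, 111, 121 and 113 in Irgm1KO_control, and 126, 83.5, 117 and 128 in Irgm1KO_fenofibrate, with no call in any comparison and an Irgm1 fold change of -0.10 (95% interval -0.31 to 0.11). Far2, the second reductase, ranged from 0.0228 to 0.164 CPM and was not called in any comparison.

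Of 4 redox enzymes tested in the first experiment, 2 fell and 1 rose in Irgm1-KO, beside 20.7% and 19.8% of all genes tested. Idh1, the NADP-dependent isocitrate dehydrogenase shared by cytosol and peroxisome, was at 120.4, 148, 134 and 139 CPM in WT, 62.2, 69.8, 79.6 and 73.6 in Irgm1-KO, and 143, 161, 144 and 154 in Irgm_IFNAR-KO. Irgm1-KO was under both other groups with no overlap (log2 fold change -0.92, SE 0.0919, adjusted p = 7.31e-06, and log2 fold change 1.08, adjusted p = 1.55e-06 for Irgm_IFNAR-KO against Irgm1-KO). Idh1 in the second experiment was at 109, 114, 105 and 110.1 CPM in WT_control, 116, 126, 115 and 108 in WT_fenofibrate, 49.5, 58.7, 57.5 and 53.1 in Irgm1KO_control, and 88.8, 84.5, 95.9 and 91.98 in Irgm1KO_fenofibrate. It fell without Irgm1 (log2 fold change -1.0, SE 0.0604, adjusted p = 1.71e-09) and rose with fenofibrate in Irgm1KO (log2 fold change 0.72, SE 0.0602, adjusted p = 1.03e-07), while WT was not called (log2 fold change 0.09, adjusted p = 0.262). The interaction was positive (interaction 0.63, SE 0.0846, adjusted p = 4.82e-05). Treated Irgm1KO libraries stayed below all untreated WT libraries (log2 fold change -0.28, adjusted p = 0.00114).

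Prdx5, a peroxiredoxin also present in mitochondria, was at 328, 844, 452 and 426 CPM in WT, 1013, 981, 1816 and 1080.1 in Irgm1-KO, and 556, 766, 602 and 1049.8 in Irgm_IFNAR-KO. Irgm1-KO exceeded WT in every library (log2 fold change 1.25, SE 0.313, adjusted p = 0.00687), with 1 Irgm1-KO library far above the other 3. The fold change between Irgm_IFNAR-KO and Irgm1-KO (log2 fold change -0.72, adjusted p = 0.0819) was called only with DESeq2, the Xist covariate, only the compared groups or the 3 outlying libraries left out or without Irgm_IFNAR-KO replicate 4 (adjusted p 5.23e-05 to 0.0390). Prdx5 in the second experiment was at 437, 517, 469 and 433 CPM in WT_control, 315, 339, 376 and 324 in WT_fenofibrate, 706, 656, 574 and 742 in Irgm1KO_control, and 328, 439, 361 and 388 in Irgm1KO_fenofibrate. It rose without Irgm1 (log2 fold change 0.53, SE 0.0941, adjusted p = 1.65e-04) and fell with fenofibrate in WT (log2 fold change -0.46, SE 0.0941, adjusted p = 0.00136) and in Irgm1KO (log2 fold change -0.82, SE 0.0945, adjusted p = 3.06e-06). The negative interaction (interaction -0.37, SE 0.133, adjusted p = 0.0484) was lost without Irgm1KO_control replicates 1, 2 or 4 or Irgm1KO_fenofibrate replicates 1, 3 or 4 or WT_control replicates 1, 3 or 4 or WT_fenofibrate replicates 2, 3 or 4 (adjusted p 0.0528 to 0.103) and with no low-count filter (adjusted p 0.0736). Prdx5 overlaps Trmt112 on the other strand.

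Cat, the catalase that removes hydrogen peroxide, was at 198, 198, 202 and 206 CPM in WT, 199, 215, 192 and 216 in Irgm1-KO, and 242, 233, 233 and 227 in Irgm_IFNAR-KO. Irgm1-KO did not differ from WT beyond the spread (log2 fold change 0.03, SE 0.0632, adjusted p = 0.731, 95% interval -0.11 to 0.17), while Irgm_IFNAR-KO was above both. The call against WT (log2 fold change 0.22, adjusted p = 0.0432) was lost without Irgm_IFNAR-KO replicates 1, 2, 3 or 4 or WT replicates 1, 2, 3 or 4 (adjusted p 0.0608 to 0.169) and with RLE scaling, no low-count filter or only the compared groups (adjusted p 0.0536 to 0.0783). The call against Irgm1-KO (log2 fold change 0.19, adjusted p = 0.0321) was lost without Irgm1-KO replicates 1, 3 or 4 or Irgm_IFNAR-KO replicates 1, 2 or 3 (adjusted p 0.0545 to 0.132) and with RLE scaling, only the compared groups or the 3 outlying libraries left out (adjusted p 0.0621 to 0.0947). Cat in the second experiment was at 177, 195, 197 and 218 CPM in WT_control, 249, 255, 228 and 380.4 in WT_fenofibrate, 130.5, 143, 130.2 and 143 in Irgm1KO_control, and 177, 162, 200.3 and 194 in Irgm1KO_fenofibrate. There it fell without Irgm1 (log2 fold change -0.52, SE 0.126, adjusted p = 0.00229), rose with fenofibrate in WT (log2 fold change 0.50, SE 0.126, adjusted p = 0.00574), with 1 library at 380.4 CPM, and rose in Irgm1KO (log2 fold change 0.42, SE 0.126, adjusted p = 0.0117), where the call was lost without the low-count filter (adjusted p = 0.0529). The interaction was -0.08 (95% interval -0.45 to 0.30). Treated Irgm1KO cells overlapped untreated WT cells (log2 fold change -0.10, adjusted p = 0.543). Catalase is thus a member whose Irgm1 effect was called in 1 experiment only. The labels give 100 sequencing cycles in the first experiment and 50 in the second, with the same culture days, medium and mouse ages. Why the experiments differ for Cat was not tested.

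Dhrs4, a carbonyl reductase with a peroxisomal targeting signal, was at 14.9, 25.6, 17.8 and 19.7 CPM in WT, 10.2, 12.2, 15.4 and 12.1 in Irgm1-KO, and 16.3, 17.7, 15.96 and 21.2 in Irgm_IFNAR-KO. Irgm1-KO was lower with some overlap (log2 fold change -0.64, SE 0.170, adjusted p = 0.00969). The rise in Irgm_IFNAR-KO against Irgm1-KO (log2 fold change 0.51, adjusted p = 0.0298) was lost without Irgm1-KO replicates 1, 2 or 4 or Irgm_IFNAR-KO replicates 2 or 4 (adjusted p 0.0565 to 0.0861). Dhrs4 in the second experiment was at 15.4, 16.3, 15.7 and 16.1 CPM in WT_control, 13.4, 14.2, 12.3 and 13.5 in WT_fenofibrate, 13.7, 14.7, 13.9 and 12.8 in Irgm1KO_control, and 13.9, 15.2, 14.1 and 14.1 in Irgm1KO_fenofibrate. It was lower without Irgm1 (log2 fold change -0.21, adjusted p = 0.00500) and with fenofibrate in WT (log2 fold change -0.25, adjusted p = 0.00244) but was not called in Irgm1KO (log2 fold change 0.06, adjusted p = 0.414), with a positive interaction (interaction 0.31, SE 0.0791, adjusted p = 0.00770). The proteases that trim or clear matrix proteins changed little. Lonp2 was at 47.97, 43.95, 48.6 and 47.8 CPM in WT_control, and 52.2, 51.5, 51.9 and 49.6 in Irgm1KO_control and rose (log2 fold change 0.12, adjusted p = 0.0178). For Lonp2 this call was lost without WT_control replicate 2 (adjusted p 0.0625) and with no low-count filter (adjusted p 0.172). Tysnd1 was at 13.8, 13.03, 13.6 and 13.7 CPM in WT_control, and 14.6, 15.1, 14.01 and 15.9 in Irgm1KO_control and rose (log2 fold change 0.14, adjusted p = 0.0490). For Tysnd1 this call was lost without Irgm1KO_control replicates 1, 2 or 4 or WT_control replicates 1, 2, 3 or 4 (adjusted p 0.0521 to 0.125) and with the Xist covariate or no low-count filter (adjusted p 0.0787 to 0.239). Neither was called in the first experiment, except that other fits called Lonp2 in Irgm1-KO against WT with the Xist covariate (adjusted p 0.0458) and in Irgm_IFNAR-KO against Irgm1-KO with DESeq2 or the Xist covariate (adjusted p 0.0215 to 0.0375).

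**Figure D4:**
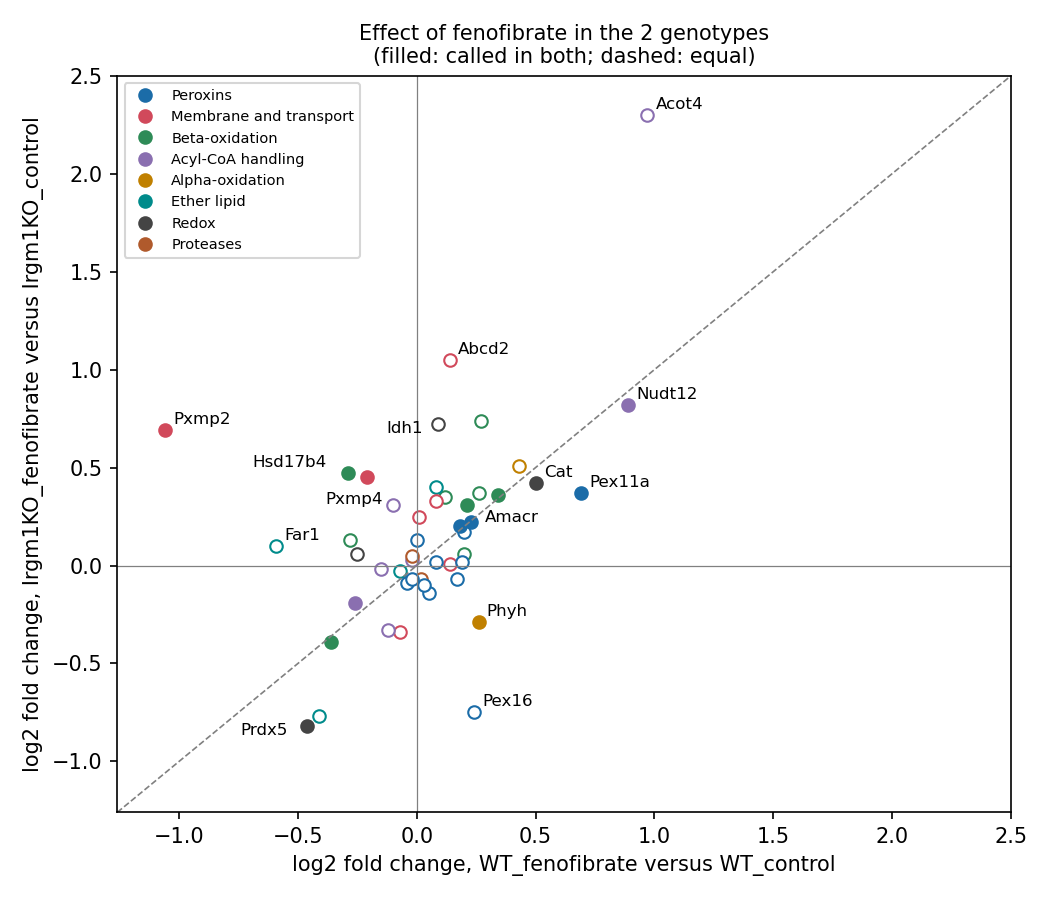
Log2 fold change of each member with fenofibrate in WT (x axis) and in Irgm1KO cells (y axis), coloured by role; filled points passed the threshold in both genotypes and open points in 1 or neither. Nudt12, Cat, Pex11a and Amacr lie in the upper right quadrant, Prdx5 in the lower left, and Hsd17b4, Pxmp2, Pxmp4 and Phyh in the quadrants of opposite sign.

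Treated Irgm1KO cells were also set against untreated WT cells, to see how far the levels of the members lay from WT control. In Irgm1KO_fenofibrate against WT_control 11 of 48 members rose and 12 fell (22.9% and 25.0%), beside 25.9% and 22.5% of all genes tested. The largest falls with calls that no single library removed were Hsd17b4 (log2 fold change -0.47, adjusted p = 1.73e-05), Far1 (log2 fold change -0.45, adjusted p = 0.00902) and Nudt7 (log2 fold change -0.39, adjusted p = 3.91e-04). Among the rises were Acot4 (log2 fold change 2.47, adjusted p = 8.29e-05), Pex11a (log2 fold change 0.47, adjusted p = 7.40e-04), Phyh (log2 fold change 0.46, adjusted p = 2.30e-05) and Pex16 (log2 fold change 0.36, adjusted p = 0.00605). Gnpat, Crat and Slc25a17 were not called, with intervals of -0.02 to 0.16, -0.10 to 0.12 and -0.05 to 0.14 on the log2 scale. Other calls depended on 1 library: Abcd2 was lost without Irgm1KO_fenofibrate replicates 2 or 3 or WT_control replicates 2 or 3 (adjusted p 0.0579 to 0.115) and with the Xist covariate or no low-count filter (adjusted p 0.0620 to 0.0998), Acaa1a without Irgm1KO_fenofibrate replicates 1, 3 or 4 or WT_control replicate 3 (adjusted p 0.0513 to 0.0935) and Crot without Irgm1KO_fenofibrate replicates 2 or 3 or WT_control replicates 1, 3 or 4 (adjusted p 0.0506 to 0.0706) and with only the compared groups (adjusted p 0.0712). Likewise Dhrs4 was lost without Irgm1KO_fenofibrate replicates 1, 3 or 4 or WT_control replicates 2 or 4 (adjusted p 0.0505 to 0.0832) and with the Xist covariate or no low-count filter (adjusted p 0.0574 to 0.110), Pex10 without Irgm1KO_fenofibrate replicates 1 or 2 or WT_control replicates 3 or 4 (adjusted p 0.0614 to 0.0847) and with no low-count filter or only the compared groups (adjusted p 0.0646 to 0.0843) and Tysnd1 without WT_control replicate 2 (adjusted p 0.0520) and with no low-count filter (adjusted p 0.0721).

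Levels can be compared between genes only per length. Per kilobase of exonic sequence, Prdx5 was highest in WT of the first experiment (239.7 CPM per kb), followed by Cat (76.96), Idh1 (48.8), Phyh (38.1) and Hsd17b4 (34.95). In Irgm1-KO the order was Prdx5 (572), Cat (78.6), Phyh (68.2), Acaa1a (29.1) and Idh1 (25.7), so Hsd17b4 and Idh1 moved down the list. WT_control gave Prdx5, Cat, Idh1, Hsd17b4 and Phyh as the leading 5, in that order. Exonic lengths came from an annotation of the earlier build and count every annotated exon, so these values order genes only roughly. Of the untested members, Acaa1b, Pipox and Ephx2 were too low for the filter in the second experiment.

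Other genes of peroxisomal pathways, counted per list, moved in both directions. Of 14 further peroxisomal enzymes tested in the first experiment, 2 rose and 5 fell in Irgm1-KO, and of 16 tested in the second 5 rose and 7 fell in Irgm1KO_control. Fenofibrate raised 4 and lowered 3 of these 16 in WT, and raised 6 and lowered 4 in Irgm1KO. Over all genes tested, 19.8% rose and 20.7% fell in Irgm1-KO, and 27.3% and 26.1% in Irgm1KO_control. With fenofibrate the shares were 18.1% and 16.9% in WT, and 23.5% and 22.2% in Irgm1KO. The lists are short, so the counts given here are not read as departures from these shares. Of 3 further peroxins tested, 1 rose with Irgm1 loss in each experiment and the others were not called. Genes of division and turnover gave 1 rise and 1 fall among 9 in Irgm1-KO, and 3 rises and 3 falls among 10 in Irgm1KO_control.

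Regulators moved in both directions, and the only one given with its values is Rxra, the partner receptor of the PPARs, which was lower without Irgm1. It is 1 of 8 regulators tested, of which 1 rose and 3 fell in Irgm1-KO (12.5% and 37.5%, beside 19.8% and 20.7% of all genes tested), and 3 rose and 3 fell in Irgm1KO_control (37.5% each, beside 27.3% and 26.1%). The list holds 10 regulators, and Ppara, the gene of PPAR alpha, and Ppargc1a were absent from the first table. In the second experiment too, only 8 of the 10 passed the low-count filter. Whether Ppara was among these 8 is not given here. Of the 8, 3 rose and 0 fell in Irgm_IFNAR-KO against Irgm1-KO (beside 21.5% and 21.3%). With fenofibrate 0 rose and 3 fell in WT, and 2 rose and 3 fell in Irgm1KO. The other regulators are given as counts only, so Rxra does not stand for the list. A part of Rxra in the changes of the members was not tested. Rxra fell in both experiments (log2 fold change -0.99, SE 0.224, adjusted p = 0.00376, and log2 fold change -1.22, SE 0.192, adjusted p = 7.56e-05). It rose in Irgm_IFNAR-KO against Irgm1-KO (log2 fold change 1.10, adjusted p = 0.00184) and with fenofibrate in Irgm1KO cells (log2 fold change 0.62, adjusted p = 0.0154), and in WT it was not called with the drug (log2 fold change 0.16, adjusted p = 0.560). Of 13 genes listed as responders to PPARs outside the set, fenofibrate raised 3 and lowered 4 in each genotype (23.1% and 30.8%), where it raised 18.1% and lowered 16.9% of all genes tested in WT, and 23.5% and 22.2% in Irgm1KO.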

How the data were processed

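Messenger RNA libraries of 28 samples were grouped by their titles. Both tables hold raw whole-number counts for Ensembl genes, as the authors deposited them. The submitters' processing notes name fastp, STAR, DESeq2 and build GRCm39; which program assigned reads to genes, with which strand setting, and all versions are unstated in the labels. The smaller table (15423 genes) kept no gene under 10 counts in all its libraries, and the larger one lists 56941 genes. Depth (see the report) makes counting error small for members above a few CPM and large for Acot4, Far2 and Hacl1.

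Fits were made in R 4.3.3 with edgeR 4.0.16: filterByExpr (minimum count 10, minimum total 15), TMM, a robust quasi-likelihood fit with every group of the experiment, Benjamini-Hochberg adjustment over all genes tested, and a threshold of 0.05. Each SE is the absolute log2 fold change over the root of F, and 95% intervals use the fit's degrees of freedom. The steps were tested on simulated data. Alternatives were DESeq2 1.42.0, RLE scaling, no low-count filter, only the compared groups, Xist as covariate, a replicate block and leaving out each library. Leaving out the 3 outlying libraries was chosen after seeing the data. The members, lists and tests were chosen with earlier results of these data known. Values in every library are given for members called the same way in both Irgm1 comparisons, called in the interaction, or among up to 4 called members with the smallest p per role and comparison. Cat, Abcd3, Pex14, Pex5, Gnpat and Agps are always described.

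To see whether replicate numbers pair libraries, each library's departure from its group was compared between groups. Control and fenofibrate libraries with 1 number in common had r of 0.38 to 0.488 (WT) and 0.261 to 0.371 (Irgm1KO), and those with unlike numbers at most 0.145 and 0.013. Numbers were therefore taken as pairs within a genotype, but only in the replicate-block fit. The main fenofibrate and interaction calls and their p-values leave this pairing out. The first experiment gave -0.479 to 0.519 for like numbers, which were not taken as pairs. Replicates differed by more than counting noise.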

Additional observations from a re-analysis of the deposited data

Results flagged for a closer look

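The fenofibrate response differed between genotypes by the interaction test for 18 members. It was higher in Irgm1KO cells for Pxmp2 (1.75 on the log2 scale), Abcd2 (0.92), Hsd17b4 (0.75), Far1 (0.69), Pxmp4 (0.65), Idh1 (0.63), Crat (0.41), Scp2 (0.41), Gnpat (0.32), Dhrs4 (0.31), Slc25a17 (0.25), Acox3 (0.23) and Mpv17 (0.23). It was lower in Irgm1KO cells for Pex16 (-0.99), Phyh (-0.55), Prdx5 (-0.37), Abcd3 (-0.27) and Pex13 (-0.19). With 1 library left out the call was lost for Abcd2 without Irgm1KO_control replicates 1 or 2 or Irgm1KO_fenofibrate replicates 1 or 4 or WT_control replicates 2 or 3 or WT_fenofibrate replicates 1, 3 or 4 (adjusted p 0.0542 to 0.0775) and with no low-count filter (adjusted p 0.100), for Acox3 without Irgm1KO_control replicates 1 or 2 or Irgm1KO_fenofibrate replicates 3 or 4 or WT_control replicate 3 or WT_fenofibrate replicate 4 (adjusted p 0.0537 to 0.0813), for Mpv17 without Irgm1KO_control replicates 1, 2 or 4 or Irgm1KO_fenofibrate replicates 2, 3 or 4 or WT_control replicates 1, 2, 3 or 4 or WT_fenofibrate replicates 1, 2 or 3 (adjusted p 0.0604 to 0.110) and with no low-count filter (adjusted p 0.115) and for Prdx5 without Irgm1KO_control replicates 1, 2 or 4 or Irgm1KO_fenofibrate replicates 1, 3 or 4 or WT_control replicates 1, 3 or 4 or WT_fenofibrate replicates 2, 3 or 4 (adjusted p 0.0528 to 0.103) and with no low-count filter (adjusted p 0.0736).

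Of 330 groups of 4 libraries checked, 21 held 1 library far from the other 3 by Dixon's test, which chance gives in about 1 of 20 groups. In Irgm1-KO the highest library stood apart for Prdx5 at 1816 CPM (others 981 to 1080.1), Acaa1a at 145 (122 to 124), Agps at 110.2 (102 to 103), Far1 at 57.8 (54.3 to 54.9) and Nudt7 at 15.04 (7.53 to 8.61), and the lowest for Pecr at 0.870 (1.40 to 1.48). In Irgm_IFNAR-KO the lowest library stood apart for Far1 at 87.3 CPM (103 to 106) and Abcd4 at 11.7 (12.8 to 12.95), and the highest for Phyh at 71.6 (60.97 to 62.4) and Acot8 at 24.1 (16.5 to 17.5). In WT the lowest library was apart for Abcd3 at 55.9 CPM (62.5 to 63.01).

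In WT_control the highest library was apart for Acox3 at 196 CPM (179 to 179.9) and Nudt19 at 35.2 (31.7 to 31.99), and the lowest for Pex5 at 36.2 (38.4 to 38.6). WT_fenofibrate held a low library for Pex16 at 7.35 CPM (9.02 to 9.27) and Scp2 at 66.7 (77.9 to 79.3). Irgm1KO_control held a high library for Nudt7 at 9.26 CPM (7.69 to 7.85) and Far2 at 0.164 (0.124 to 0.130). Irgm1KO_fenofibrate held a high library for Acaa1a at 68.97 CPM (53.2 to 54.1), Dhrs4 at 15.2 (13.9 to 14.1) and Hacl1 at 0.399 (0.344 to 0.352).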

How the results depend on the processing

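Counts of members called were within 1.5 times their values under each alternative run, apart from those that follow. With Xist as a covariate 13 members rose in Irgm1-KO against WT, beside 4240 of 13998 genes tested. With it 23 rose in Irgm_IFNAR-KO against Irgm1-KO, beside 4631 genes. In Irgm_IFNAR-KO against WT 11 rose and 2 fell, beside 2086 and 2122 genes. In that last comparison the number that rose was 2 with DESeq2, 0 with RLE scaling, 0 without the low-count filter, 0 with only the compared groups, 0 with the replicate block, 2 without the 3 outlying libraries, and 0 to 1 over the fits that left out 1 library. The number that fell there was 2 with DESeq2, 0 with only the compared groups, 0 with the replicate block, and 0 to 1 with 1 library left out. Members with a negative interaction numbered 3 without the low-count filter and 4 to 8 with 1 library left out, the highest without Irgm1KO_fenofibrate replicate 2. The cause was not tested for any of these. No direction reversed for a called member. With the replicate number as a block, 18 members were called in Irgm1-KO against WT and 18 in Irgm_IFNAR-KO against Irgm1-KO, where the numbers do not pair the libraries.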
